A study of Mus musculus with 10 samples.

Results

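The accessible chromatin around 10 fibroblast matrix and cytoskeleton genes of the mouse was followed from embryonic fibroblasts to embryonic stem cells. The genes were Postn, Fbn1, Sparc, Lox, Fn1, Tnc, Vim, Acta2, Tagln and S100a4. Peaks of 10 ATAC-seq lists, an assay in which a transposase cuts and tags open DNA, were taken from 30 kb before to 30 kb after each gene in the mm10 build. Peaks of all lists that shared at least 1 bp were merged into regions, called elements here, and 183 of the 208851 elements lay in these windows, each near 1 of the 10 genes. An element counts for a stage when its 2 libraries both have a peak there.

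Each of 5 stages had 2 libraries. MEF are mouse embryonic fibroblasts of a C57BL/6 x 129 background that carried an OKSM cassette in Col1a1, which encodes Oct4, Klf4, Sox2 and Myc for reprogramming, and the doxycycline-dependent activator M2rtTA in ROSA26. They were kept without doxycycline. DAY3, DAY6 and DAY9 are cells of the same genotype after 3, 6 and 9 days in stem cell medium with 1 µg/ml doxycycline and 50 µg/ml ascorbic acid. DAY3 cells were not sorted, and DAY6 and DAY9 cells were sorted for the surface marker SSEA1. ESC is the V6.5 embryonic stem cell line of the same mixed background, without the cassette and grown on irradiated feeder cells. Sorting therefore cannot be told apart from DAY6 and DAY9, and the genotype and feeder layer cannot be told apart from ESC.

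Fibroblasts build and anchor the extracellular matrix. Fibronectin (Fn1) and fibrillin-1 (Fbn1) form fibrils, the enzyme lysyl oxidase (Lox) cross-links collagen and elastin, and periostin (Postn), tenascin-C (Tnc) and osteonectin (Sparc) tune how cells adhere to the matrix. Vimentin (Vim) is the intermediate filament protein of mesenchymal cells, smooth muscle actin (Acta2) and transgelin (Tagln) belong to contractile actin bundles, and S100a4 is a calcium-binding protein long used as a fibroblast marker. On the way to pluripotency fibroblasts lose this program and take on an epithelial form.

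RefSeq promoter sequences (GRCm38.p6, the same build as mm10) were found for 7 of the 10 genes. They are shown for genes whose starts behaved differently: Vim and S100a4 had a peak over the start in all 10 libraries, Postn had one in MEF alone, and Acta2 lost its peak in ESC. The first 3 are the 250 bases before the start, at chr2:13574061-13574310 (+), chr3:90603520-90603769 (+) and, for the outer of 2 Postn starts, chr3:54359017-54359266 (+). The last 2 are 30-base stretches, chr3:54361069-54361098 (+) before the inner Postn start and chr19:34255502-34255531 (−) before the Acta2 start. Capitals mark TATAAA, the TATA box, and in Acta2 GGAATG, the core letters bound by TEAD factors.
Vim: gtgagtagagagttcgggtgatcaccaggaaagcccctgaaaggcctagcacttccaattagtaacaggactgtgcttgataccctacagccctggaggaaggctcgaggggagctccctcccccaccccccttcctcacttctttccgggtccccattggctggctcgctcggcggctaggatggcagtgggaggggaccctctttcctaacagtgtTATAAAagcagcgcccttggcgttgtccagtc
S100a4: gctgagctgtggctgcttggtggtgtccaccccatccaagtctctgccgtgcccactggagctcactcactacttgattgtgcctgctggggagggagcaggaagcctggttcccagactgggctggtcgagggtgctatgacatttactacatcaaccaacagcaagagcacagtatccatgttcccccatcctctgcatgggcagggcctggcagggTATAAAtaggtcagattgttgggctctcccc
Postn outer start: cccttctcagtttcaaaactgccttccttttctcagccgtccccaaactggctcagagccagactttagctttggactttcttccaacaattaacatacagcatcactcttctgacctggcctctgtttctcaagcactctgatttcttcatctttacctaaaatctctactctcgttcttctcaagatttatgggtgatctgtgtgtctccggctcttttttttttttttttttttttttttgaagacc
Postn inner start: agcccagagctaTATAAActcagctctcca
Acta2: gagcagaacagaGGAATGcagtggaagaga

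The 250 bases before each of the 9 annotated starts of these 7 genes were searched on both strands. TATAAA was in 5 of the 9, against 12.4% of 32851 mouse promoters. It began 26 bases before the inner Postn start, 32 before the Vim start and 31 before the S100a4 start, and both Tnc starts, whose windows overlap, shared 1 more copy. GGAATG was in Acta2 alone (12.6% of all promoters), and ATGCAAAT, the OCT motif, was in both overlapping Tnc windows (1.6%). The AP-1 motif TGANTCA (6.75%), the RUNX motif TGTGGT (14%), the KLF motif GGGTGTGG (3.2%) and the strict CArG box (1.47%) were in none of the 9. The strict CArG box has A or T alone between CC and GG. Forms with a C or G in between were not searched, so their absence is not shown. A match describes letters in this window and not a bound site.

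The lists held 45497 to 88980 peaks and DAY3 had the shortest. Read depth is not given in the sources used here. The commonest background pileup, a measure of relative depth recovered from the peak statistics, was 3.415 and 8.322 in the MEF libraries and 2.327 to 7.372 in the others. Peak pileups within the DAY3 pair and within the DAY9 pair varied 1.332 and 1.42 times as much as counting error alone would give. Being so alike, the DAY3 pair and the DAY9 pair each counted as 1 sample in tests. The MEF, DAY6 and ESC pairs varied 6.057, 3.615 and 8.089 times as much, and pairs from different stages 4.068 to 31.4 times. The MEF and ESC pairs thus differed more than some pairs from different stages. Folds given below are the authors' ratios of a peak to its local background. They describe peaks within a list, since depth differs between lists. Starts of fibroblast marker genes had a peak in both libraries for 7 of 8 genes in MEF, 5 at DAY3, 5 at DAY6, 3 at DAY9 and then 4 in ESC. The same count for 8 pluripotency markers was 1, 1, 5, 7 and 8, for 4 epithelial markers 0, 2, 4, 4 and 4, and for 4 blood and endothelial markers 0 at each stage.

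The chromatin near the 10 genes was richest in elements in MEF. MEF had 59 elements, DAY3 44, DAY6 40, DAY9 45 and ESC 39. Relative to the length of the lists, peaks near the 10 genes numbered 13.3 and 12.4 per 10000 in the MEF libraries, 12.7 and 12.1 at DAY3, 8.90 and 8.31 at DAY6, 6.56 and 6.51 at DAY9, and 7.28 and 6.41 in ESC. The libraries of MEF and DAY3 overlapped in this measure, and each of them lay above every library of the other 3 stages. All of these sums include Fbn1, which is the longest of the 10 genes and gave 50 of the 183 elements.

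Of the 59 MEF elements, 23 (39.0%, exact 95% binomial interval 26.5 to 52.6, for counting error alone) had no peak in either DAY3 library. Of all 46089 MEF elements of the genome, 47.1% had none, and of those within 30 kb of a protein-coding gene 41.6%, so the share near the 10 genes was not above the background. The share without a peak was 49.2% at DAY6 (29 of 59, background 48.2%), 59.3% at DAY9 (35 of 59, interval 45.7 to 71.9, background 49.7%) and also 50.8% in ESC (30 of 59, background 50.5%). First absence was thus spread over the stages: 23 elements were first absent at DAY3, 8 at DAY6 (13.6%, background 6.06%), 6 at DAY9 (10.2%, background 3.06%) and, last, 2 in ESC (3.39%, background 3.36%). The other 20 had a peak in at least 1 library of every stage (33.9%, background 40.4%), and 18 of these in all 10 libraries (background 33.3% of MEF elements).

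Not every element that was absent at DAY3 stayed absent. Of the 23, 17 had no peak in any later library (28.8% of the 59, background 37.7%), and 6 had a later peak (10.2%, background 9.43%). In median score, elements absent at DAY3 stood lower in the MEF lists than the other MEF elements. Their median lay at the 52.5 and 45.5 percentiles of the 2 lists, near the middle, against 86.8 and 84 for the elements with a peak at every stage. The 16 elements first absent after DAY3 stood at 87.1 and 74.2. Some of these had a peak again in ESC, among them the strongest MEF element of Lox and the start of Sparc. Over the genome the medians were 53.8 and 50.6 for elements absent at DAY3, 70.1 and 62.4 for those first absent later, and 81.5 and 77 for those with a peak at every stage. The part of peak height in the timing was not tested.

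**Figure D1:**
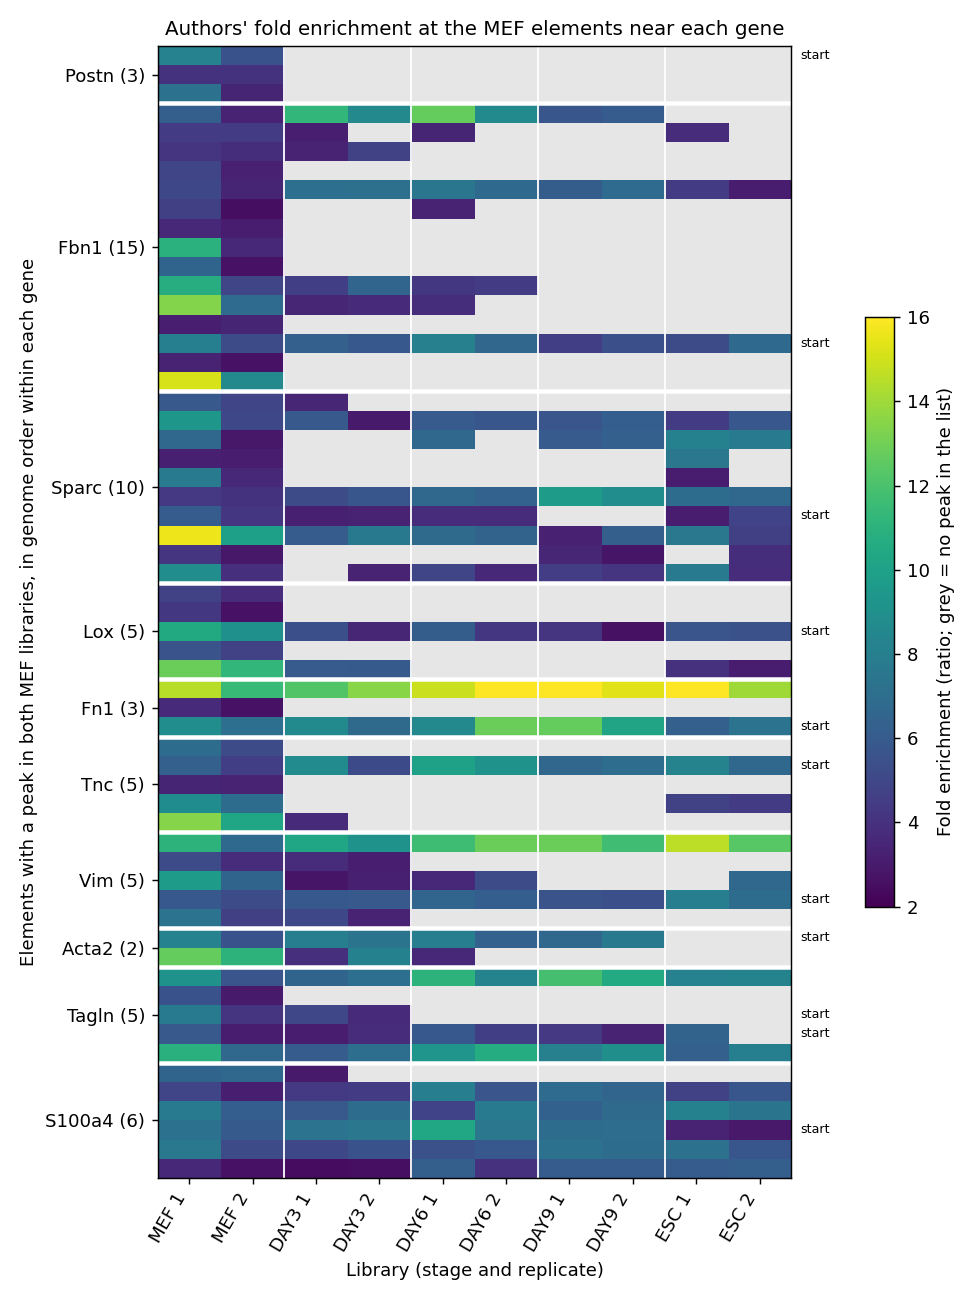
Authors' fold enrichment (ratio of the peak to its local background, colour) at the 59 MEF elements in the 10 libraries, grouped by gene and in genome order; grey marks no peak, folds above 16 have the colour of 16, and "start" marks an element over the gene's start. The 3 Postn elements have colour in the MEF columns alone, while 5 of the 6 S100a4 elements have colour in every column.

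The MEF elements were also counted in 2 groups, a split made with earlier results known. The 6 matrix genes (Postn, Fbn1, Sparc, Lox, Fn1, Tnc) had 41 MEF elements, of which 22 (53.7%, background 47.1%) were absent at DAY3 and 16 had no later peak in any library. Vim, Acta2, Tagln and S100a4 had 18, of which 1 (5.56%) was absent at DAY3. Over the 8569 protein-coding genes with at least 4 MEF elements the median share absent at DAY3 was 28.6% (quartiles 16.7 and 50). Position moved with this split: 11 of the 18 elements of the second group (61.1%) lay within 500 bp of an end of some gene, against 9 of the 41 matrix elements (22%). Of all MEF elements of the genome 28.5% did, and 33.8% of those near protein-coding genes. Genome-wide 10.9% of MEF elements at gene ends and 61.5% of the others were absent at DAY3. Away from gene ends 21 of 32 matrix elements (65.6%, background 61.5%) and 1 of 7 of the second group (14.3%) were absent at DAY3, so the second share rests on 7 elements. The matrix shares were thus near the background, and the difference between the groups was not tested.

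Which MEF library was used changed these numbers. With MEF replicate 2 left out, MEF had 99 elements near the 10 genes, and 57.6% were absent at DAY3 (background 59.2%). The order of the 2 groups was the same there (50 of 72 and 7 of 27), and also without MEF replicate 1 (35 of 54 and 5 of 25, background 58.2%).

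**Figure D2:**
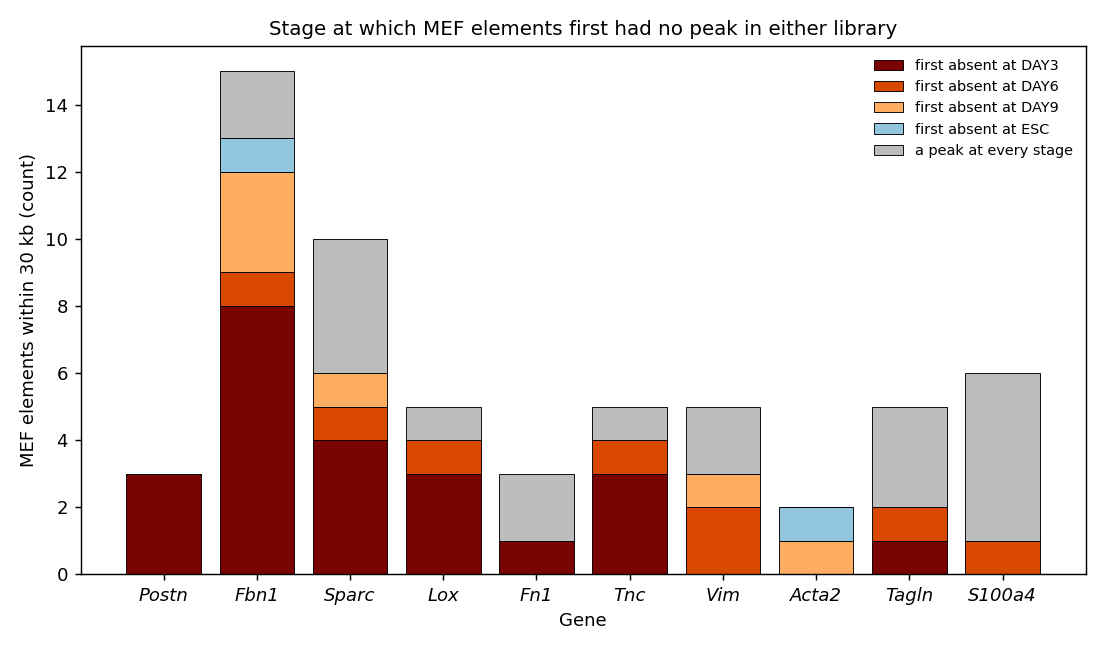
Number of MEF elements near each gene (bar height, count) split by the first stage at which neither library had a peak; grey is a peak at every stage. Dark red (DAY3) fills the whole Postn bar and 8 of the 15 Fbn1 elements, and is missing from Vim, Acta2 and S100a4.

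Of the genes of the fibril-forming proteins Fbn1 and Fn1, Fbn1 (chr2:125300594-125506485) had more MEF elements and lost more. It had 15 elements in MEF, 11 at DAY3, 9 at DAY6, 8 at DAY9 and then 3 in ESC. Of the 15, 8 were first absent at DAY3 (53.3%, background 47.1%), 1 at DAY6, 3 at DAY9 and then 1 in ESC. The other 2 had a peak at every stage. Away from gene ends 8 of 14 were absent at DAY3 (57.1%, background 61.5%). At DAY9 12 of the 15 had no peak (80%, background 49.7%), and in ESC also 12 (80%, background 50.5%). The strongest, at chr2:125530415-125531351 and 24.4 kb before the start, outside any annotated gene, had folds of 15.1 and 8.58 in MEF and no peak in the other 8 libraries.

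Inside Fbn1 other strong elements were first absent at DAY9. The element at chr2:125368501-125369259 had folds of 13.4 and 6.87 in MEF, 3.49 and 3.67 at DAY3, 3.82 in 1 DAY6 library, and no later peak. The element at chr2:125355505-125356703 had 10.7 and 4.93 in MEF, 4.60 and 6.54 at DAY3, 4.27 and 4.51 at DAY6, and none at DAY9 or in ESC. The first was thus missing from 1 library at DAY6 and the second from none until DAY9.

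Fbn1 also held elements of the intermediate stages that neither MEF nor ESC had. The one at 67.9 kb inside the gene had folds of 12.7 and 10.9 at DAY3, 14.4 and 14.1 at DAY6 and 6.24 and 8.84 at DAY9. The one at 116.7 kb had 8.04 and 7.53, then 9.27 and 7.60, then 3.72 and 4.42. In ESC another element appeared, at chr2:125410927-125412856, with folds of 9.10 and 6.18 and no peak in the other 8 libraries. The start of Fbn1 (chr2:125505085-125507142) had a peak in every library, with folds from 4.60 at DAY9 to 8.12 at DAY6, so the losses were away from the start.

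**Figure D3:**
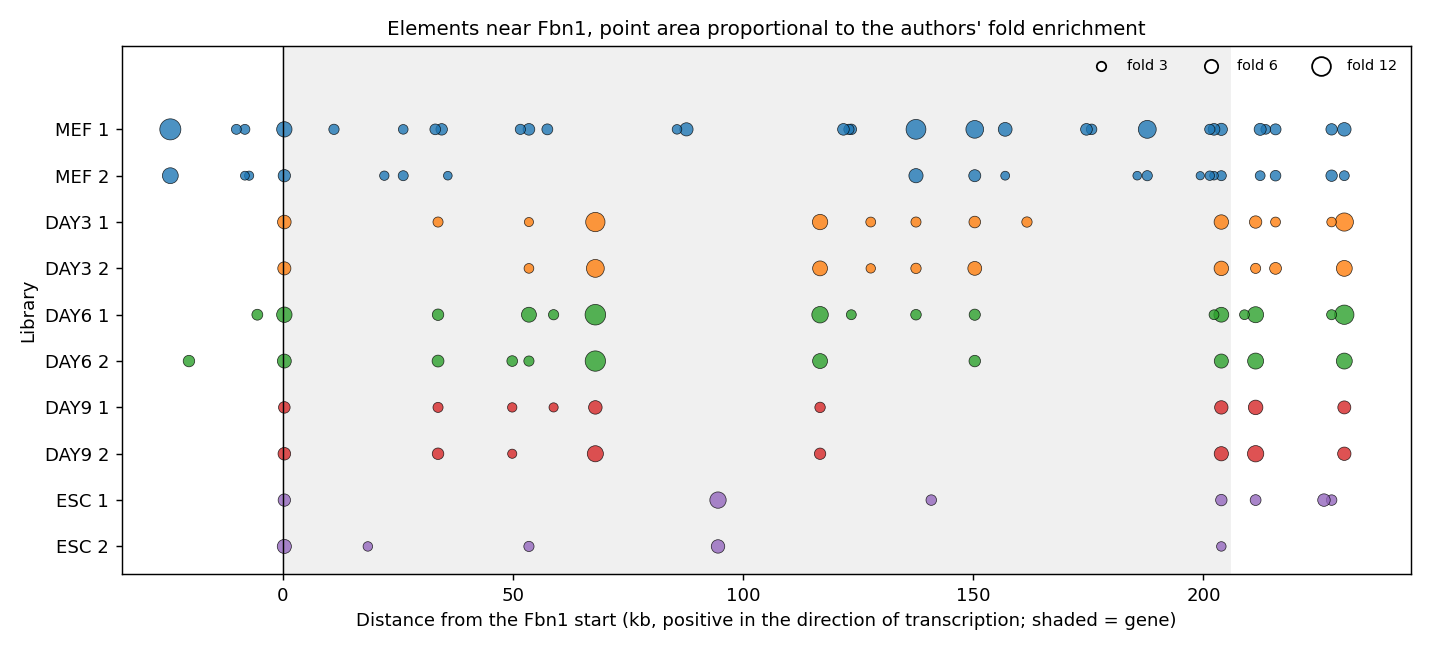
Elements near Fbn1 by distance from its start (horizontal axis, kb, positive along transcription, gene shaded) in each library (rows); point area is proportional to the authors' fold. The start has a point in every row, the point at −24.4 kb is in the 2 MEF rows, and the point at 67.9 kb is in the DAY3, DAY6 and DAY9 rows.

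By the both-library rule Fn1 (chr1:71585473-71653280) gained more elements than it lost. It had 3 elements in MEF, 6 at DAY3, 4 at DAY6, 7 at DAY9 and then 7 in ESC, and 1 of the 3 MEF elements was absent at DAY3 and later. This small loss depended on the rule. With 1 library sufficing 8 of 11 MEF elements of Fn1 and 27 of 35 of Fbn1 were absent at DAY3 (background 64.4%). Without MEF replicate 1 the counts were 4 of 6 and 13 of 20. Without MEF replicate 2 they were 5 of 8 and 22 of 30. For Fn1 a −log10 p-value of at least 10, lists of equal length and 50% cover each gave 0 of 2. The element at chr1:71673155-71674053, at an end of Gm46094, had no MEF peak, folds of 8.09 and 6.54 at DAY3, 15.3 and 14.8 at DAY6, 15.3 and 14.6 at DAY9, and 15.9 and 14.6 in ESC. An element inside Fn1, at chr1:71645302-71646505, had no MEF peak either and then folds of 6.06 and 5.34, 5.99 and 12.3, 12.5 and 12.4, and 8.32 and 6.92. Both were in all 8 libraries after MEF. The element at one end of Fn1 (chr1:71652529-71653977) had a peak in all 10 libraries, with folds from 6.30 in ESC to 12.8 at DAY6. The strongest MEF element of the window, in all 10 libraries, lay at an end of Atic, a gene of purine synthesis.

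Postn (chr3:54359267-54391041) had 3 elements in MEF, 0 at DAY3, 1 at DAY6, 1 at DAY9 and then 0 in ESC. The 3 MEF elements were absent from all 8 other libraries. Just before the outer start, at chr3:54358394-54359113, folds were 8.19 and 5.50 in the MEF libraries. This element covers 97 of the 250 bases shown for that start. The 2 elements downstream of the gene had 4.08 and 4.08 (chr3:54401678-54402010) and 7.25 and 3.43 (chr3:54413096-54413776). The element of DAY6 and DAY9, 5.89 kb before the outer start, also had a peak in MEF replicate 1 (fold 5.13) and in ESC replicate 1 (5.58). With MEF replicate 2 left out it is a MEF element that was absent at DAY3 and had later peaks. The inner start, with the TATA box shown above, had a peak with a fold of 4.70 in MEF replicate 1 and in no other library. A count of 3 elements is small, and 71 of the 8569 protein-coding genes with at least 4 MEF elements likewise had all of them absent at DAY3.

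Tnc (chr4:63959785-64047015) had 5 elements in MEF, 1 at DAY3, 2 at DAY6, 3 at DAY9 and then 5 in ESC. Of its MEF elements 3 were absent at DAY3 and 1 more at DAY6. The strongest, at chr4:64076179-64077047 and 29.6 kb before the outer of 2 starts, had folds of 13.4 and 10.3 in MEF and 3.65 in 1 DAY3 library, and no later peak. The element 18.5 kb before that start had 8.83 and 6.97 in MEF, none at DAY3 to DAY9, and 4.68 and 4.49 in ESC. The start (chr4:64046629-64047644) was open in all 10 libraries, with folds of 6.31 and 4.57 in MEF and up to 10.0 at DAY6.

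Sparc (chr11:55394159-55420080) had fewer elements at the intermediate stages than at either end. It had 10 elements in MEF, 5 at DAY3, 6 at DAY6, 8 at DAY9 and then 9 in ESC, and 9 of the 10 MEF elements had a peak in at least 1 ESC library. The DAY3 lists are the shortest, and with lists of equal length 1 of 7 MEF elements of Sparc (14.3%) was absent at DAY3, against 4 of 10 (40%) as deposited. Per 10000 list peaks the lowest mean was that of DAY6 (1.046, against 1.315 at DAY3 and 1.594 in MEF). All 4 of its elements that were absent at DAY3 had a later peak. One, 27.4 kb after the start, had folds of 6.69 and 2.90 in MEF, none at DAY3, 6.74 in 1 DAY6 library, 6.00 and 6.31 at DAY9, and 8.13 and 7.81 in ESC. The strongest MEF element, at chr11:55427950-55428845 and 8.32 kb before the start, had 15.6 and 9.88 in MEF and a peak in each later library, with folds from 3.28 to 7.68. The start itself had a peak in 8 libraries and in neither DAY9 library. Within 2500 bp of the start all 10 libraries had one. Feeder cells were present in ESC cultures, and their part in the ESC peaks of Sparc and Tnc was not tested.

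Lox, on chromosome 18, had 5 elements in MEF, 2 at DAY3, 1 at DAY6, 1 at DAY9 and then 4 in ESC. Of the MEF elements 3 were absent from DAY3 on in all libraries. The strongest had folds of 12.9 and 11.3 in MEF, 5.99 and 5.95 at DAY3, none at DAY6 or DAY9, and 4.02 and 3.10 in ESC. The element over an end of Lox was open in all 10 libraries with folds of 10.5 and 9.03 in MEF and 2.63 to 6.11 in the other 8. Both MEF values were above every later one, although folds of lists of different depth are a description.

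**Figure D4:**
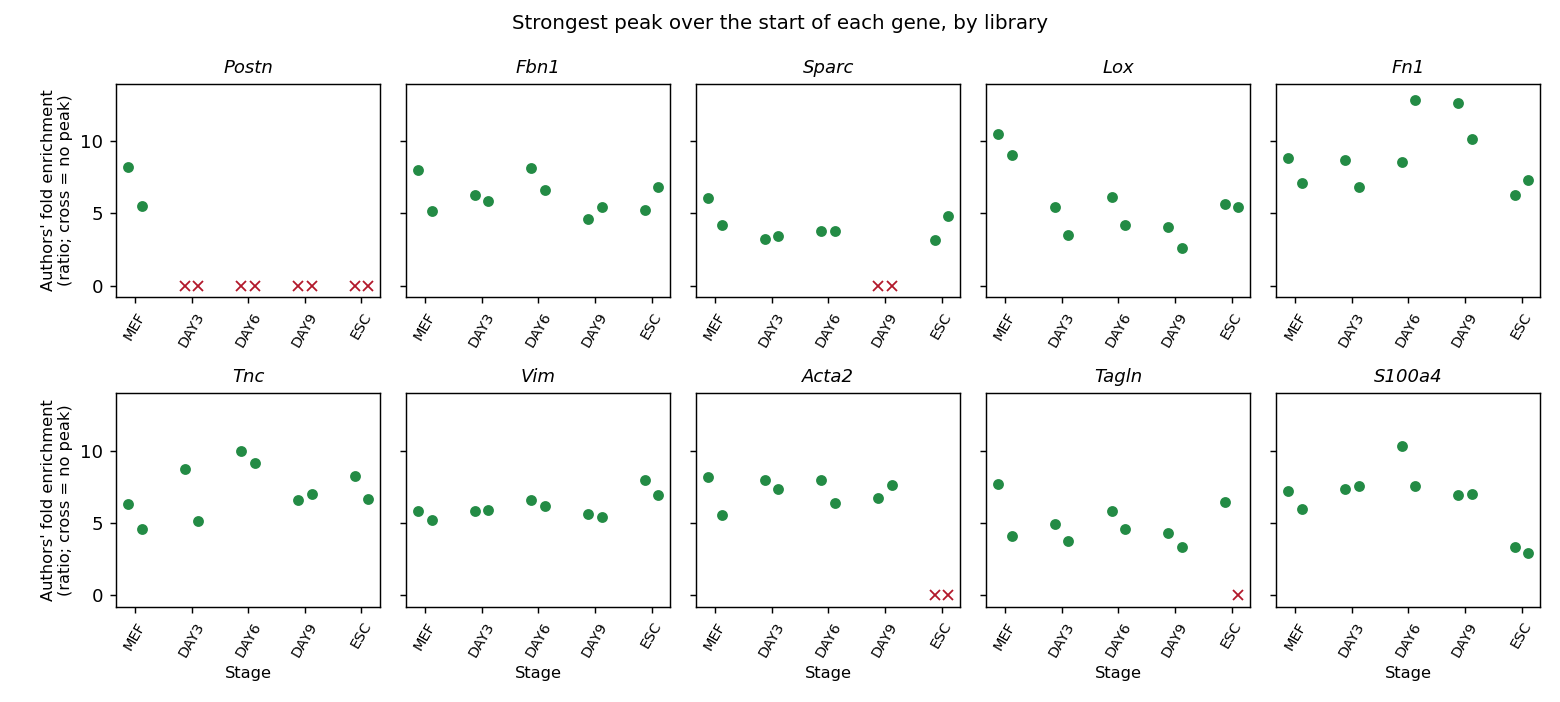
Authors' fold enrichment (vertical axis, ratio) of the strongest peak within 500 bp of each gene's start, or of either end for Lox, Fn1 and Tagln, in the 2 libraries of each stage; crosses mark no peak. Postn has points in MEF alone, Acta2 has crosses in ESC, and Vim lies between 5.21 and 7.96 in all 10 libraries.

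Among the cytoskeletal genes, Vim (chr2:13574311-13582826) had a peak over its start in all 10 libraries and no element that was absent at DAY3. The start (chr2:13573199-13575785), whose sequence is given above, had folds of 5.87 and 5.21 in MEF, 5.84 and 5.93 at DAY3, 6.57 and 6.21 at DAY6, 5.61 and 5.42 at DAY9, and 7.96 and 6.93 in ESC. All 5 MEF elements of Vim had peaks in both DAY3 libraries. Of the 8569 protein-coding genes with at least 4 MEF elements, 1685 likewise had none absent at DAY3. The element farthest from the gene, 29.7 kb before the start at an end of Trdmt1, had a peak in all 10 libraries. The element 16.7 kb before the start and the one just beyond the far end of the gene (chr2:13583303-13584554) were absent from DAY6 on, the latter after folds of 7.35 and 4.65 in MEF and 5.06 and 3.32 at DAY3. An element at chr2:13558467-13559140, at an end of Gm9875, had 9.75 and 6.52 in MEF, 2.81 to 5.23 at DAY3 and DAY6, none at DAY9 and 6.66 in 1 ESC library. An element 20.1 kb before the start was in all 6 libraries of DAY3 to DAY9, with folds from 4.76 to 8.74, and in no MEF or ESC library.

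Acta2 (chr19:34240336-34255585) was open at its start until DAY9 and not in ESC. The start element (chr19:34254174-34255922), which holds the 30 bases shown above, had folds of 8.23 and 5.54 in MEF, 8.01 and 7.37 at DAY3, 7.97 and 6.39 at DAY6, 6.75 and 7.64 at DAY9, and no peak in either ESC library. The 8 libraries that carried the cassette thus had a peak and the 2 ESC libraries none. The other MEF element, at chr19:34265562-34266235 and 10.5 kb before the start, had 12.7 and 11.05 in MEF, 3.97 and 8.13 at DAY3, 3.59 in 1 DAY6 library, and no peak at DAY9 or in ESC.

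Tagln (chr9:45929628-45936058) had 2 elements at one of its ends. One, at chr9:45935524-45936358, had folds of 7.73 and 4.12 in MEF and 4.96 and 3.68 at DAY3, and no peak in the later 6 libraries. Its neighbour at chr9:45936380-45937372, also at an end of Sidt2, had a peak in 9 libraries and none in ESC replicate 2. These adjacent elements parted at DAY6. Farther out, inside Pcsk7, the element at chr9:45919850-45920925 had 3.62 in 1 MEF library, 9.94 and 9.78 at DAY3, 11.8 and 16.4 at DAY6, 10.4 and 11.2 at DAY9 and none in ESC.

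S100a4 (chr3:90603770-90606045) kept most of its elements. Of its 6 MEF elements 5 had a peak in all 10 libraries and none was absent at DAY3. None was absent at DAY3 either for 1685 of the 8569 protein-coding genes with at least 4 MEF elements. The element over the start (chr3:90603623-90605058) had folds of 7.21 and 5.94 in MEF, 7.36 and 7.55 at DAY3, 10.3 and 7.55 at DAY6, 6.95 and 6.99 at DAY9, and 3.35 and 2.94 in ESC. Both ESC values were below the other 8, and their scores lay at the 4.74 and 4.18 percentiles of the ESC lists. Its window also covers other genes of the S100 cluster, and the strongest MEF element lay inside S100a3.

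Elements new to ESC lay near 6 of the 10 genes. Of the 39 ESC elements 14 (35.9%, against 56.6% of all ESC elements, a difference that was not tested) had no peak in either MEF library: 5 near Fn1, 3 near Sparc, 2 near Lox, 2 near Acta2 and 1 each near Fbn1 and Tnc. By the both-library rule 11 of the 14 first appeared in ESC, 2 at DAY3 and 1 at DAY9. Genome-wide 20279 of 33275 such elements first appeared in ESC, 2890 at DAY3, 4885 at DAY6 and 5221 at DAY9. The difference from the genome was not tested. The strongest near Lox, inside Srfbp1, had folds of 10.7 and 5.86, and the strongest near Acta2, inside Stambpl1, 6.02 and 5.88. Elements of DAY3, DAY6 or DAY9 that neither MEF nor ESC had numbered 11 of the 183 (6.01%, background 9.61% of all regions), 5 of them near Fbn1 and 3 near S100a4. Peaks in 1 library alone made up 76 of the 183 regions (background 37.9%), 27 of them in MEF replicate 1. Genome-wide 15092 of the 79092 regions of 1 library were in MEF replicate 1.

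Peak number near each gene, as peaks per 10000 of the list, was compared over the 5 stages by the part of its sum of squares that lay between stages, in an exact permutation test. No gene passed after Benjamini-Hochberg adjustment over the 47481 genes with a peak (0 of 10 here and 0%, or 0, of all genes). With 8 samples in 420 arrangements the smallest possible p was 0.00238. Without adjustment 5 of the 10 genes had an exact permutation p below 0.05 (Fbn1, Sparc, Lox, Vim and Tagln) against 16.5% of all genes. The lowest was 0.00238 for Lox (adjusted 0.209) and the highest 0.536 for Acta2 (adjusted 0.693). Lox had 0.940 and 0.933 peaks per 10000 in MEF, 0.656 and 0.440 at DAY3, 0.307 and 0.339 at DAY6, 0.129 and 0.255 at DAY9, and 0.462 and 0.450 in ESC. Both MEF libraries of Lox lay above the other 8. With so few arrangements over 47481 genes the adjusted test could hardly pass a gene, so its count of 0 says little about the 10 genes.

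**Figure D5:**
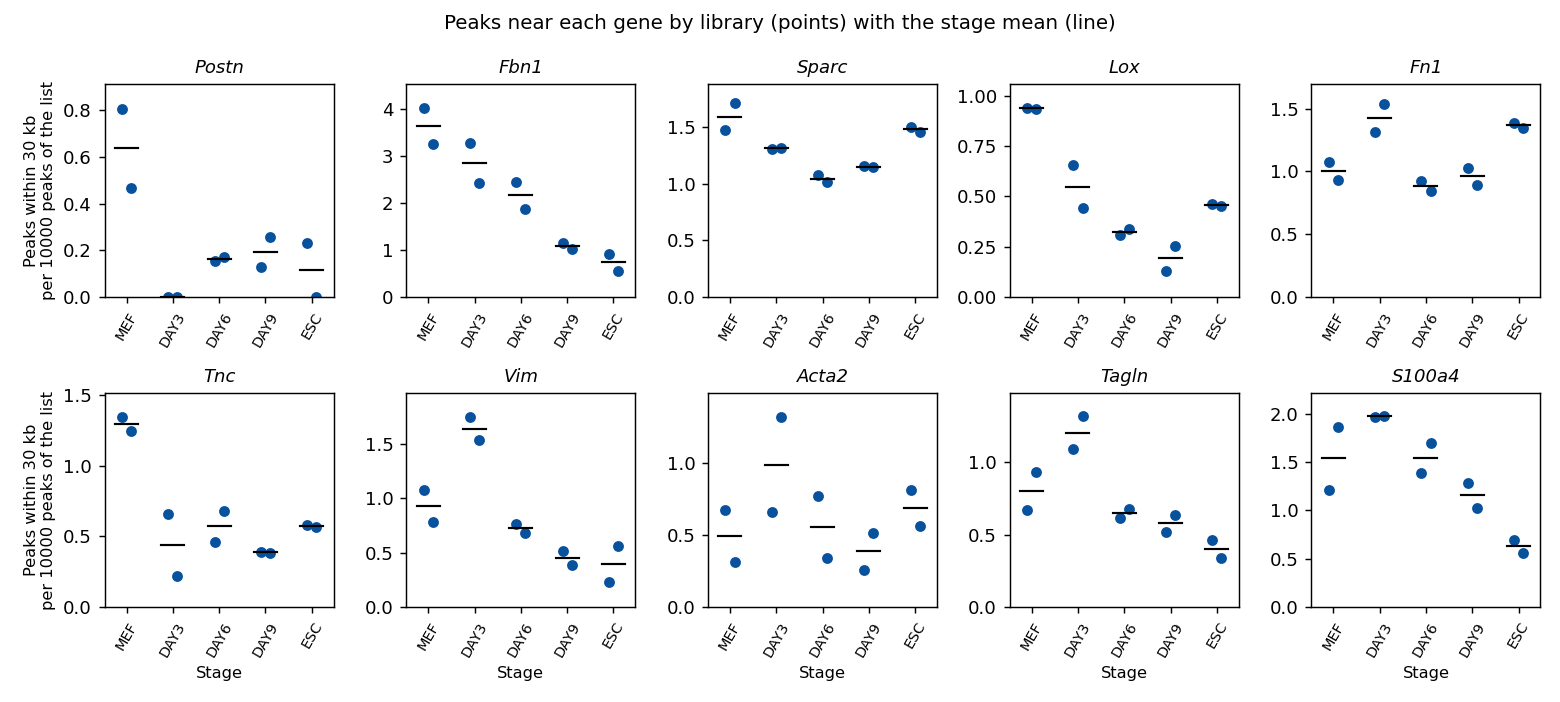
Peaks within 30 kb of each gene per 10000 peaks of the list (vertical axis, own scale per gene, from 0) in the 2 libraries of each stage (points) with the stage mean (line). Fbn1 goes from 4.03 and 3.27 in MEF to 0.924 and 0.562 in ESC, while Tnc goes from 1.34 and 1.24 in MEF to 0.578 and 0.562 in ESC.

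Other genes of the fibroblast matrix and cytoskeleton were followed in a list of 46. Near them 99 of 261 MEF elements (37.9%) were absent at DAY3, against 47.1% of all MEF elements, and 14 of their 756 regions also lay in the windows of the 10 genes. Of the 46, 35 had at least 4 MEF elements, with a median share absent at DAY3 of 40% (quartiles 20 and 52.8) against 28.6% over all such protein-coding genes. The highest shares were those of Cald1 (caldesmon, which binds actin; 8 of 12) and Ltbp1 (which binds latent TGF-beta in the matrix; 12 of 18), followed by 3 of 5 each for Bgn, Fbn2 and Fbln1. The lowest were S100a6 (0 of 5) and Fbln5 (0 of 6), followed by 1 of 7 each for S100a11 and the matrix proteases Mmp2 and Mmp14. S100a6 lies in the S100a4 window and its 5 MEF elements are among the 6 of S100a4, so they are not a separate observation. Matrix genes stood at both ends of this order. By the test across stages 0 of the 46 passed with adjustment and 8 without (exact permutation test). Without adjustment 16.5% of all genes passed, so the 8 do not set this list apart.

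The genes whose peak numbers over the 10 libraries were most like the sum over the 10 genes were Ppfia1, Gm18212, Gm38999, Vps53 and Gm32759. Their Pearson r lay between 0.973 and 0.983, the highest of 8121 candidates with at least 5 MEF elements and over 1 Mb from any of the 10 genes, whose 95th percentile was 0.867. Ppfia1 had 13 and 11 peaks in MEF, 7 and 7 at DAY3, 7 and 4 at DAY6, 4 and 4 at DAY9, and 4 and 3 in ESC. These correlations share the 10 libraries and their depth and are a description.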

How the data were processed

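ATAC-seq peak lists of 10 libraries were used, 2 per stage. Per the submitters' processing notes, which give no role or order, Bowtie2 2.3.2, MACS2 2.1.1, deepTools 2.3.6 and mm10 were used; filters are not given in the sources used here. The authors deposited one list per library with a score (10 times the −log10 p-value rounded down in 99.9864% of peaks of DAY6 replicate 2 and 100% elsewhere), a fold enrichment that is a linear ratio, and −log10 p- and q-values; no list holds summits. The score and fold are the authors' own and describe or rank peaks. Peaks were merged at 1 bp of overlap. Distances are from RefSeq gene ends (GRCm38.p6); strand was known for 7 of the 10 genes, so either end served as the start of Fn1, Lox and Tagln, and whether an element is exonic or intronic was not analysed here. An element is first absent at the first stage with a peak in neither library. Between 2 and 2 libraries an exact two-sided p cannot go below 0.333, so shares are given beside the genome's without a test. Numbers per gene were tested as described in the report; nothing says that libraries came from separate cultures, so p-values measure the spread between these libraries. On simulated lists 184 of 184 testable planted closings were recovered, with 167 other calls among 74444 peaks. Each simulated list was MEF replicate 1 with 5% of its peaks dropped at random, and planted peaks were deleted from all later lists. Their recovery was thus fixed by construction. The simulated lists did not differ in depth or length as the real lists do, so this checks the code alone. On simulated counts of 47481 genes the permutation test found 70 of 200 planted genes and 1901 others at an unadjusted p below 0.05. The 10 genes, the list of 46 and the split by role were chosen with earlier results of these data known. Elements named are those over each start, the MEF element of highest score and the highest in ESC without a MEF peak; further elements, such as those of the intermediate stages, were chosen after their values were seen. From the list of 46, the genes with the 3 highest and 3 lowest shares among those with at least 4 MEF elements are named, with ties. Python 3.11.15, NumPy 2.4.6, pandas 2.3.3, SciPy 1.17.1 and matplotlib 3.10.9 were used. Alternatives were windows of 10 and 100 kb, a −log10 p-value of at least 10, lists of equal length, 50% cover, 1 library per stage and leaving out each library.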

Additional observations from a re-analysis of the deposited data

How the results depend on the processing

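A window of 10 kb left 37 MEF elements, 22 ESC elements and 7 ESC elements in no MEF library; one of 100 kb gave 103 in MEF, 69 at DAY6, 85 at DAY9, 78 in ESC and 35 in ESC and no MEF library. A −log10 p-value of at least 10 left 28 elements at DAY3 and 9 in ESC and no MEF library. Lists of equal length left 24 ESC elements, 8 of them in no MEF library, and the share of MEF elements absent at DAY3 was 27.1% (background 37.3%). With a peak in at least 1 library sufficing, there were 115 elements in MEF, 63 at DAY6, 79 in ESC and 41 in ESC and no MEF library, and the shares of MEF elements absent were 62.6% at DAY3, 67% at DAY6, 74.8% at DAY9, 67% in ESC and 51.3% in every later library (genome 64.4%, 62.1%, 61.8%, 62.6% and 50.2%). The larger and smaller counts follow from the settings' construction. Leaving out 1 library gave 59 to 99 MEF elements, 39 to 62 in ESC, 14 to 31 in ESC and no MEF library (25 without ESC replicate 1, 31 without replicate 2), and shares absent of 39.0% to 57.6% at DAY3, 49.2% to 62.6% at DAY6, 59.3% to 71.7% at DAY9, 50.8% to 63.3% in ESC and 28.8% to 44.4% in every later library (44 of 99 without MEF replicate 2 and 34 of 79 without replicate 1). Windows of 500 bp at the middle of the MEF peaks, chosen after seeing the data in place of windows at summits, which the lists do not hold, gave the same shares of MEF elements absent. In the groups by role, 0 of 9 and 16 of 28 elements were absent at DAY3 with 10 kb, 9 of 36 and 40 of 67 with 100 kb, and 1 of 18 and 12 of 30 with equal lists (matrix genes second). In the same order, 50% cover gave 3 of 15 and 17 of 35 (background 55.2%). A −log10 p-value of at least 10 gave 2 of 16 and 15 of 28 (background 44.6%). With 1 library sufficing they were 9 of 30 and 63 of 85 (background 64.4%). No member passed the adjusted test across stages in the alternatives run, and 1 to 8 had an unadjusted exact permutation p below 0.05; with the 10 libraries as separate samples 2.44% of all genes passed. With the replicate number as a block 0 members passed. The numbers do not pair the libraries: over 10 pairs of stages the correlation of same-numbered deviations was −0.082 to 0.0241, so the labels share a number alone.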
